A study of Homo sapiens and Mus musculus with 74 samples.

Results

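The comparison described here asked, gene by gene, whether loss of RPL41 changed the number of disome footprints relative to monosome footprints in the mouse kidney. It used 12 kidney libraries, 6 from disome-seq and 6 from Ribo-seq, out of 74 libraries in the series and 30 in the mouse count table. Libraries of either assay that share a genotype and a number were taken as a pair, which gave 3 WT pairs and 3 Rpl41 KO pairs. For each gene the quantity of interest was the genotype change in the log2 disome-to-monosome ratio, KO minus WT, called the paired change below. Of 22484 genes with a coding transcript, each represented by the transcript that encodes its longest protein, 12368 had enough counts to be tested.

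The study examined how RPL41 affects translation in cultured human cells and in knockout mice. Kidneys came from male C57BL/6J mice aged 10 weeks. The KO mice (Rpl41-/-) lack the Rpl41 coding sequence in every cell, removed by electroporation of CRISPR-Cas9 into zygotes, and the WT mice were Rpl41+/+. In both assays lysates were digested with RNase I, and fragments of 17 to 34 nucleotides were kept for Ribo-seq and fragments of 50 to 80 nucleotides for disome-seq. Each group held 3 libraries. No label says that a disome-seq and a Ribo-seq library with the same number came from the same mouse, so the pairing rests on the number alone, and it was adopted after an earlier analysis of these data had shown its effect.

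A ribosome protects a short piece of mRNA from nuclease, and the pieces that Ribo-seq recovers are called monosome footprints. When a ribosome stops and the next one runs into it, both protect a longer piece together, which is the disome footprint. Such collisions are sensed by the cell and can lead to degradation of the mRNA and of the unfinished protein, although many disomes also form at ordinary pauses and resolve. RPL41 is a very small ribosomal protein that lies at a bridge between the subunits. Despite its name, it is now counted as part of the small subunit.

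Rpl41 (ENSMUSG00000093674) was counted in every library as a check of the labels. Ribo-seq gave 85, 41 and 50 counts in the WT libraries and 0, 1 and 2 in the KO libraries, and disome-seq gave 154, 130 and 71 counts against 2, 0 and 1. With a floor of 3 counts per library, Rpl41 was at least 23.7-fold lower in KO Ribo-seq and at least 28.5-fold lower in KO disome-seq, measured as CPM, which are counts scaled to a common library total.

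Counted on 1 transcript per gene, disome-seq libraries held 277485 to 724988 counts and Ribo-seq libraries 3098882 to 11856867. The KO Ribo-seq libraries 2 and 3 were the deepest, with 11856867 and 11003457. Between replicates of a genotype, Pearson's r of log2 CPM across genes was 0.923 to 0.959 in disome-seq and 0.978 to 0.995 in Ribo-seq. The disome libraries were the shallower and the less alike, and the median standard error of a paired change was 0.37 on the log2 scale. Markers of kidney tubules were present in every library, with a summed level of 26500 to 32900 CPM for proximal tubule transporters in Ribo-seq. Pancreatic enzyme genes summed to 1410 CPM in WT Ribo-seq library 1, against 26.8 to 163 CPM in the other Ribo-seq libraries. None of the 6 that could be tested had a called paired change. In Amy2a1, Prss2, Cela2a, Cpb1 and Ctrb1, however, its standard error was 2.03 to 3.85, so a call was hardly possible. In Ribo-seq alone Amy2a1, Cela2a and Cela1 were lower in KO (edgeR adjusted p = 0.0259, 0.029 and 0.0218).

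Each assay was scaled to its own totals, so a uniform rise or fall of disomes across all mRNAs would be removed, and the values below are relative to the other genes. On this scale the median log2 ratio over all genes was -0.03, -0.06 and -0.07 in WT pairs 1 to 3 and -0.04, -0.09 and -0.15 in KO pairs 1 to 3. The ranges of the genotypes overlapped. Across genes the paired change had a median of -0.02, and its quartiles were -0.28 and 0.25.

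Loss of RPL41 was accompanied by paired changes in a small set of genes. Of 12368 genes tested, 35 (0.283%) passed an adjusted p of 0.05 by edgeR's quasi-likelihood F-test with Benjamini-Hochberg adjustment, 23 of them higher in KO (0.186%) and 12 lower (0.097%). Their changes were 0.70 to 3.72 in size on the log2 scale, with a median of 1.04. At an unadjusted p of 0.05, 433 genes were higher (3.5%) and 493 lower (3.99%). In 28 of the 35 genes, 16 higher and 12 lower, the 3 KO pairs lay wholly outside the range of the 3 WT pairs. This was so for 664 of all genes tested above the WT range (5.37%) and for 879 below it (7.11%). In 19 of the 28, 10 higher and 9 lower, every one of the 12 libraries also held at least 10 counts.

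The number of calls depended on the pairing and on the tool. Without the replicate block of pairs, edgeR called 0 genes, with 735 at an unadjusted p under 0.05. On the same pairs DESeq2 called 2 genes, Gm20594 and Wdfy1, and limma called 0, with 337 and 812 genes at an unadjusted p under 0.05. Leaving out KO pair 1, 2 or 3 gave 72, 9 or 14 calls.

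A paired change can lie in the disome counts, in the monosome counts, or in both moving apart. Tested alone, disome-seq had 30 genes that differed between genotypes (0.243%), 18 higher and 12 lower in KO, while Ribo-seq had 1320 (10.7%), 822 higher and 498 lower. With library totals in place of TMM the split turned, to 9 higher and 14 lower in disome-seq and 257 higher and 618 lower in Ribo-seq. Leaving out KO library 2 or 3 reduced the Ribo-seq calls to 15 or 12 and the disome-seq calls to 6 or 1. Of the 35 genes with a called paired change, 5 also passed in disome-seq and 13 in Ribo-seq. Among the 23 genes with a higher ratio, the Ribo-seq change was the larger of the pair in 12 and the disome-seq change in 11, with medians of -0.51 in Ribo-seq and 0.50 in disome-seq, and in 20 the assays moved in opposite directions. Among the 12 genes with a lower ratio, the disome-seq change was the larger in 7 and the Ribo-seq change in 5, with medians of -0.63 and 0.27.

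**Figure D1:**
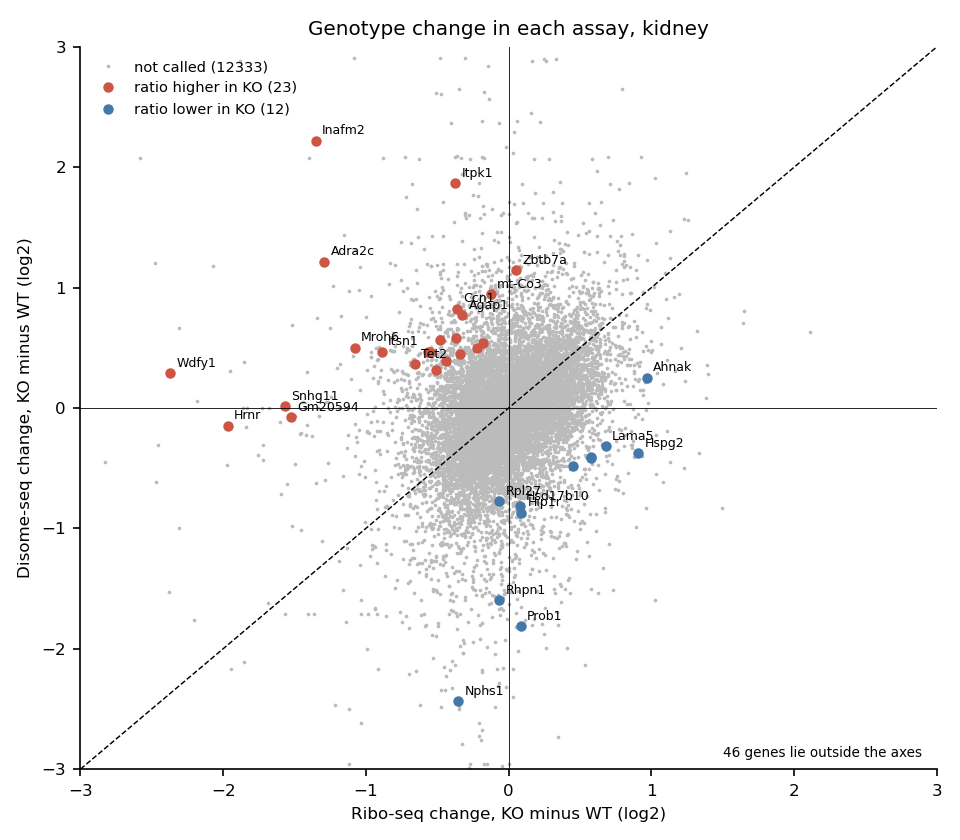
Genotype change (KO minus WT, log2) of each gene in Ribo-seq on the horizontal axis and in disome-seq on the vertical axis, with genes not called in grey, the 23 genes with a higher disome-to-monosome ratio in KO in red and the 12 with a lower ratio in blue. The dashed line marks equal change in both assays, the called genes lie away from it on either side, and 46 genes, none of them called, lie outside the axes.

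Among the 12 genes whose ratio fell, several encode very long proteins of the basement membrane and the cytoskeleton, and in these the monosome counts had risen while disome counts had not followed. Lama5 (ENSMUSG00000015647, transcript at chr2:180176373-180225859 in GRCm38) encodes laminin alpha 5, a chain of the main laminin of the kidney filter and tubule basement membranes. Its log2 ratio was 0.92, 1.35 and 1.38 in the WT pairs and 0.41, 0.04 and 0.25 in the KO pairs, or 1.21 ± 0.26 against 0.23 ± 0.18 (SD, n = 3 pairs). The highest KO pair lay below the lowest WT pair. The paired change was -0.97 (standard error 0.18, edgeR adjusted p = 0.000718). In Ribo-seq the WT libraries gave 83.3, 83.3 and 79.9 CPM and the KO libraries 118, 147 and 128 CPM, a rise of 0.68 on the log2 scale. The disome levels were 158, 213 and 208 CPM against 157, 152 and 153 CPM, a change of -0.32 that was not called in disome-seq alone.

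Hspg2 (ENSMUSG00000028763, chr4:137468803-137570629) encodes perlecan, the heparan sulfate proteoglycan of basement membranes. Its log2 ratios were -1.55, -1.56 and -0.62 in WT and -2.66, -2.82 and -2.15 in KO, with no overlap. The paired change was -1.19 (standard error 0.23, edgeR adjusted p = 0.0016). Monosome levels rose by 0.91 on the log2 scale, while the disome change was -0.37 from 26 to 75 disome counts per library.

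Ahnak (ENSMUSG00000069833, chr19:8989284-9019196), a giant scaffold protein of 5656 residues, had log2 ratios of 0.26, 0.39 and 0.58 in WT and -0.46, -0.34 and -0.16 in KO. The pairs of both genotypes were tightly grouped and apart from each other. Its change was 0.97 in Ribo-seq and 0.25 in disome-seq, of which the first was called, and the paired change was -0.71 (standard error 0.17, edgeR adjusted p = 0.0197). Myh10, the heavy chain of non-muscle myosin IIB, had ratios of 0.26, 0.47 and 0.03 in WT against -0.54, -0.33 and -1.15 in KO, a paired change of -0.89 (edgeR adjusted p = 0.0371). In Myh10 both assays moved to a like extent, by 0.46 in Ribo-seq and -0.48 in disome-seq, of which the first was called. RNA-seq of kidneys of the same genotypes gave log2 changes of -0.11 for Lama5, -0.37 for Hspg2, -0.25 for Ahnak and -0.65 for Myh10, so the monosome rise had no counterpart of the same sign in RNA level.

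The list of 33 collagens and basement membrane proteins, all tested, followed Lama5 and Hspg2 in part. These 2 genes were called lower and none higher, and 9 members (27.3%) were lower at an unadjusted p under 0.05 against 3.99% of all genes. In 8 members all KO pairs lay below all WT pairs, where 7.11% of all genes did. The median paired change was -0.27, beside -0.02 for all genes, with median changes of 0.52 in Ribo-seq and 0.10 in disome-seq. The list's median ratio relative to all genes was -1.29, -1.46 and -1.01 in the WT pairs and -1.53, -1.38 and -1.44 in the KO pairs, which overlapped. Markers of several cell types, those of tubules among them, moved in the direction of the Ribo-seq change of this list. Summed Ribo-seq levels were 876 to 1270 CPM in WT and 1310 to 1470 CPM in KO for endothelial markers, and 632 to 983 CPM against 1110 to 1140 CPM for immune cell markers, both without overlap. Fibroblast and smooth muscle markers, at 564 to 927 CPM against 687 to 939 CPM, overlapped. Loop, distal and collecting duct genes summed to 9120 to 10800 CPM against 12300 to 13200 CPM, without overlap. For brush border enzymes and scaffolds the sums were 9560 to 10800 CPM against 11000 to 12100 CPM, also without overlap. Proximal tubule transporters, at 26500 to 28500 CPM against 27900 to 32900 CPM, overlapped. Adrenal cortex markers went the other way without overlap, at 285 to 295 CPM in WT and 221 to 228 CPM in KO. Their disome-seq sums were 134 to 205 CPM against 73.2 to 118 CPM. Red cell markers, at 3060 to 3740 CPM against 1790 to 3340 CPM in Ribo-seq, overlapped. In disome-seq the endothelial markers summed to 428 to 566 CPM against 584 to 618 CPM, and the immune cell markers to 371 to 568 CPM against 566 to 821 CPM. The part of these cells in the changes of the list was not tested.

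Agrn, which encodes agrin, came next in the list with a paired change of -0.70 (edgeR adjusted p = 0.143). Nid2, the basement membrane linker nidogen 2, had -1.0, Lama4 -1.37 and Col12a1 -1.19, each from 28 disome counts or fewer per library, and none passed the adjusted threshold. Of the type IV collagens that form the network of the membrane, Col4a1 had -0.42 and Col4a3 -0.37 (edgeR adjusted p = 0.642 and 0.58). The others tested were nearer 0, Col4a2 at -0.17, Col4a5 at -0.16 and Col4a4 at -0.06. Nid1, which encodes nidogen 1, had the opposite sign to Nid2, 0.28, and was not called. In the list as a whole 25 members had a change below 0 and 8 above.

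Giant cytoskeletal and motor proteins were similar. Of 33 listed genes 32 were tested, Ahnak and Myh10 were called lower, 8 members (25.0%) were lower and 2 (6.25%) higher at an unadjusted p under 0.05, against 3.99% and 3.5% of all genes. Among the 5% of genes with the longest proteins, 88 of 619 were lower and 25 higher at that threshold. All genes are thus not a matched background for lists of long proteins. In 9 members of the list all KO pairs lay below all WT pairs, where 7.11% of all genes did. The median paired change was -0.27, with median changes of 0.51 in Ribo-seq and 0.24 in disome-seq. Dst, which encodes the linker protein dystonin, had log2 ratios of 2.39, 2.57 and 1.75 in WT and 1.39, 2.07 and 1.40 in KO. The groups overlapped, since KO pair 2 lay above WT pair 3, and its change of -0.64 did not pass (edgeR adjusted p = 0.0626). Ank3, the membrane adaptor ankyrin G, had -0.59 (adjusted p = 0.0943 by edgeR). Macf1, which links actin and microtubules, and Sptan1, the spectrin alpha chain, each had -0.47, with no overlap between genotypes and adjusted p of 0.257 and 0.331 by edgeR. Golga4, a golgin, and Myo5b, a vesicle motor, had the opposite sign, 0.39 and 0.37, and were not called.

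Among 25 giant ubiquitin ligases and lipid transfer proteins none was called. Their median paired change was -0.20, with medians of 0.51 in Ribo-seq and 0.23 in disome-seq, and 6 members (24.0%) were lower at an unadjusted p under 0.05, against 3.99% of all genes. Ubr4, a ligase that recognizes N-degrons, had log2 ratios of 0.37, 0.56 and 0.15 in WT and -0.31, 0.04 and -0.11 in KO, a change of -0.51 (edgeR adjusted p = 0.226). Huwe1 had -0.30 and Trip12 -0.17, neither called.

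**Figure D2:**
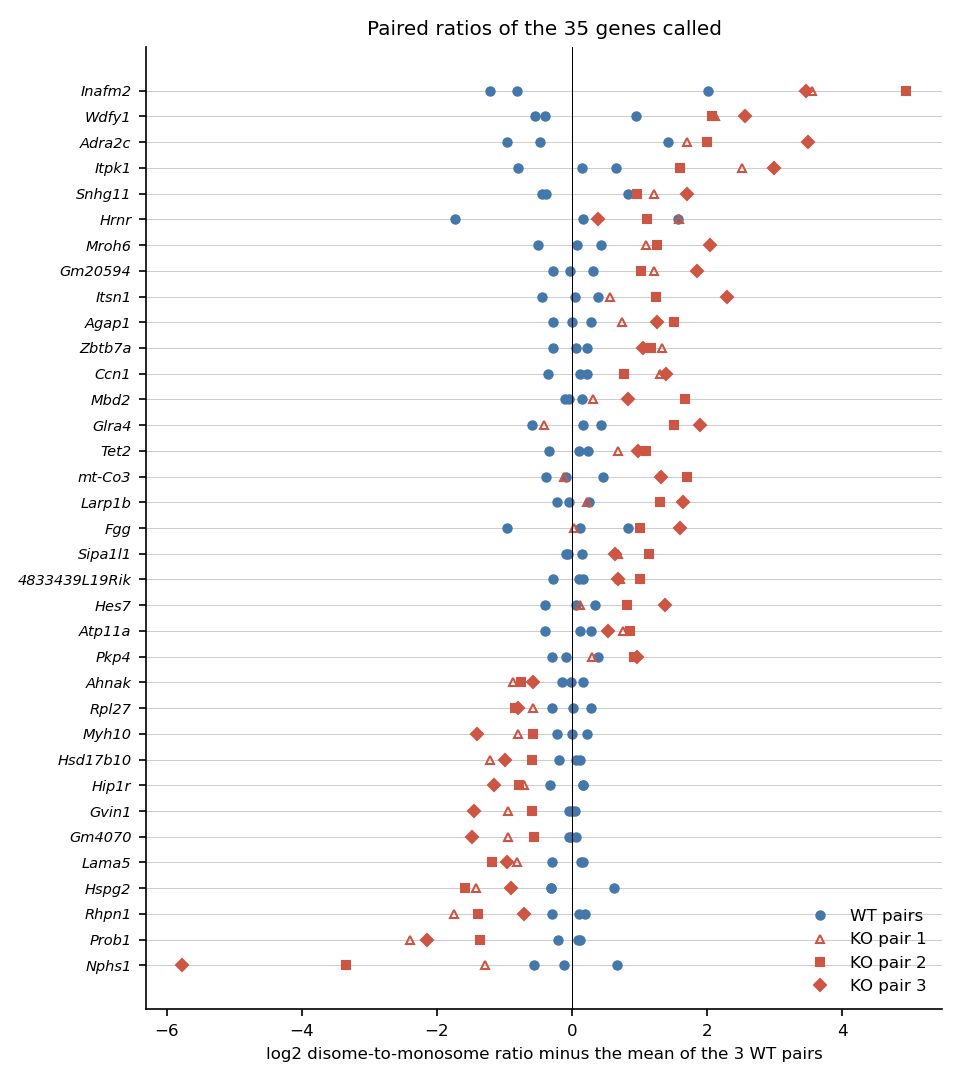
The log2 disome-to-monosome ratio of each pair for the 35 genes called, 1 gene per row, drawn as its difference from the mean of the 3 WT pairs, with WT pairs as blue circles and KO pairs 1 to 3 as open triangles, squares and diamonds in red. All 12 genes with a lower ratio have KO pairs to the left of the WT pairs, while in 7 of the 23 genes with a higher ratio the KO and WT pairs overlap.

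In Prob1, Hip1r, Hsd17b10, Nphs1, Rhpn1 and Rpl27 the lower ratio lay mostly in the disome counts. Prob1, a proline-rich basic protein on chromosome 18, gave 42, 48 and 12 disome counts in WT and 8, 9 and 3 in KO. Its disome levels of 56.6, 63.2 and 42.4 CPM lay above the 14.6, 20.1 and 11.4 CPM of the KO libraries, while Ribo-seq levels of 25.2 to 41.6 CPM in WT and 33.1 to 50.3 CPM in KO overlapped. The paired change was -1.96 (standard error 0.36, edgeR adjusted p = 0.000534), and disome-seq alone gave -1.81 (edgeR adjusted p = 0.0152).

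Hip1r, an actin-binding protein of clathrin-coated pits, had log2 ratios of 1.59, 1.59 and 1.10 in WT and 0.71, 0.64 and 0.27 in KO, a change of -0.93 (edgeR adjusted p = 0.0464). Hsd17b10, a mitochondrial dehydrogenase that is also a subunit of mitochondrial RNase P, had 90.3, 105 and 131 disome CPM in WT against 51.0, 71.3 and 57.2 in KO, with a paired change of -0.91 (edgeR adjusted p = 0.0355). In both genes the Ribo-seq change was under 0.1, at 0.09 and 0.08, and the genotypes did not overlap in ratio.

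The podocyte genes Nphs1 and Rhpn1 belong to the cells that form the filtration slits. Nphs1, which encodes nephrin of the slit diaphragm, gave 24, 26 and 12 disome counts in WT and 7, 1 and 0 in KO, with a disome change of -2.44 and a paired change of -2.11 (standard errors 0.50 and 0.52, edgeR adjusted p = 0.0198 and 0.0371). Since 2 KO libraries held 1 count or none, the size of this change is poorly fixed. Rhpn1 gave 42, 61 and 9 disome counts in WT and 8, 9 and 8 in KO, a paired change of -1.43 (edgeR adjusted p = 0.0374).

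Of 9 podocyte markers, all tested, Nphs1 was the member called and 8 had a change below 0, with a median of -0.33. Wt1, the transcription factor of the podocyte lineage, had -1.75 from at most 10 disome counts per library (edgeR adjusted p = 0.658). The summed disome level of the 9 markers was 251 to 300 CPM in WT and 130 to 196 CPM in KO, without overlap, and their summed Ribo-seq level was 323 to 526 CPM against 361 to 387 CPM. In bulk tissue, fewer podocytes and less RNA per podocyte cannot be told apart from the summed level within a single assay. The ratio sets both assays against each other, and Nphs1 had -0.35 in Ribo-seq and -2.44 in disome-seq. The part of cell number in either value was not tested.

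Rpl27 was the sole ribosomal protein gene called. Its log2 ratios were 1.49, 1.18 and 1.75 in WT and 0.89, 0.63 and 0.67 in KO, without overlap, and its paired change was -0.72 (standard error 0.17, edgeR adjusted p = 0.0294), with -0.78 in disome-seq and -0.06 in Ribo-seq. Of the 28-base stretches of its transcript, 54.5% also occur in transcripts of other annotated genes, so its counts could include reads from copies of the gene. Gvin1 and Gm4070 encode very large interferon-inducible GTPases and are near copies, with 99.7% and 99.4% of 28-base stretches shared, and their counts were almost the same in every library. They amount to 1 observation, although both are counted among the 35 genes called. Each had a paired change of -0.93 (standard error 0.19, edgeR adjusted p = 0.00344), and the log2 ratios of Gvin1 were 1.48, 1.53 and 1.43 against 0.54, 0.89 and 0.03. For Gvin1 the Ribo-seq change of 0.58 was called (edgeR adjusted p = 0.0229) and the disome-seq change of -0.41 was not (edgeR adjusted p = 0.531).

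The smallest p among genes whose ratio rose was that of Gm20594 (ENSMUSG00000096887, chr6:79817916-79818364 in GRCm38), a gene model that encodes a predicted peptide of 37 residues. Its log2 ratios were 3.21, 2.95 and 3.54 in WT and 4.45, 4.26 and 5.09 in KO, or 3.23 ± 0.30 against 4.60 ± 0.44 (SD, n = 3 pairs). The paired change was 1.37 (standard error 0.17, edgeR adjusted p = 9.15e-10). It lay in Ribo-seq, where WT libraries gave 99.6, 91.8 and 94.6 CPM and KO libraries 57.3, 29.9 and 20.6 CPM, while the disome levels of 714 to 1110 CPM in WT and 582 to 1260 CPM in KO overlapped.

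The transcript of Gm20594 shares an unbroken run of 65 bases, positions 368 to 432 of its 449, with the mitochondrial 16S rRNA gene mt-Rnr2. The first 30 bases of this run, read from the GENCODE M21 transcript and found also in mt-Rnr2, are given in capitals since all of them are shared.
Gm20594 and mt-Rnr2: TTTAATCAGTGAAATTGACCTTTCAGTGAA
The paper states that rRNA was depleted from the libraries and that reads aligning to human rRNA sequences were removed. Multimapping reads were kept in the alignment, so any footprints of mitochondrial rRNA that remained could be counted on this gene, and how many were was not tested. Of all genes tested, 12 share a stretch of at least 20 bases with rRNA or mitochondrial tRNA, and Gm20594 was the sole one among the 35.

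Wdfy1 (ENSMUSG00000073643, chr1:79702262-79761769), an endosomal protein with WD repeats and a FYVE domain, had log2 ratios of 2.62, 1.13 and 1.28 in WT and 3.79, 3.75 and 4.24 in KO. The paired change was 2.49 (standard error 0.31, edgeR adjusted p = 9.15e-10). Its Ribo-seq level was 7.24, 41.3 and 38.9 CPM in WT and 6.33, 4.97 and 5.34 CPM in KO. WT library 1 thus lay close to the KO libraries in Ribo-seq, and it also had the lowest WT disome level, 47.2 CPM against 90.8 and 95.4 CPM. Disome levels in KO were 94.7, 73.5 and 111 CPM, which overlapped those of WT. RNA-seq gave a change of 0.19.

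Itsn1, a scaffold of endocytosis, had log2 ratios of 0.34, -0.15 and 0.68 in WT and 0.85, 1.53 and 2.58 in KO, a change of 1.34 (standard error 0.21, edgeR adjusted p = 3.75e-06). In Ribo-seq it gave 95.5, 141 and 92.7 CPM in WT and 89.6, 58.4 and 35.9 CPM in KO. KO libraries 2 and 3 were low and KO library 1 was near WT. The same order was seen in Larp1b, with 148, 85.6 and 75 CPM in KO libraries 1 to 3 against 121 to 171 CPM in WT, and in Glra4, a glycine receptor subunit, with 87.5, 36.5 and 39.7 CPM against 55.4 to 89.2 CPM. It was also seen in the transcription factor Hes7, with 53.1, 33.2 and 33.4 CPM against 45.7 to 61.4 CPM, and in Fgg, the gamma chain of fibrinogen, with 62.2, 32.9 and 38.2 CPM against 43.6 to 73.3 CPM. In these 4 genes the ratios of WT and KO pairs overlapped, because KO pair 1 lay within the WT range. KO libraries 2 and 3 are the deepest Ribo-seq libraries, and the part of depth in these changes was not tested.

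Tet2, a dioxygenase that oxidizes 5-methylcytosine, had high ratios in every pair, 4.18, 3.73 and 4.32 in WT and 4.76, 5.17 and 5.06 in KO, a change of 1.01 (edgeR adjusted p = 0.00282). Its 241 and 201 disome counts in WT libraries 1 and 2 exceeded its 132 and 80 Ribo-seq counts. Snhg11, a small nucleolar RNA host gene, had ratios of 4.63, 4.68 and 5.90 in WT and 6.28, 6.04 and 6.78 in KO, a change of 1.66 (edgeR adjusted p = 0.00323) that lay in Ribo-seq counts of 11 to 51 against 4 to 27. Hrnr, which encodes the epidermal protein hornerin, had 63 to 268 disome counts but 5 to 53 Ribo-seq counts per library, and its ratios overlapped between genotypes. None of the 35 genes has an annotated small RNA within the exons of its transcript. Such genes are few, 200 of 12368 tested, so their absence among 35 says little about small RNA reads.

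In other genes with a higher ratio the disome change was the larger of the pair. Zbtb7a, a zinc finger repressor of transcription, had disome levels of 37.8, 32.9 and 28.3 CPM in WT and 67.4, 84.7 and 76.3 CPM in KO, with no overlap, while its Ribo-seq change was 0.05. Its paired change was 1.14 (standard error 0.27, edgeR adjusted p = 0.0197), and disome-seq alone gave 1.15 (edgeR adjusted p = 0.0348). Zbtb7a and mt-Co3 were the genes with a higher ratio that were also called in disome-seq.

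Atp11a, a phospholipid flippase, was the best covered gene among those whose pairs did not overlap, with at least 202 counts in every library. Its disome levels were 849, 875 and 714 CPM in WT and 1350, 1130 and 977 CPM in KO, and its log2 ratios were 0.57, 0.74 and 0.06 in WT and 1.21, 1.32 and 0.99 in KO. The paired change was 0.70 (standard error 0.17, edgeR adjusted p = 0.0294). Agap1, a GTPase-activating protein for Arf, had disome levels of 66.1, 76.3 and 49.5 CPM against 78.3, 143 and 130 CPM and a paired change of 1.16 (edgeR adjusted p = 0.00323).

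Itpk1, an inositol phosphate kinase, rose from 8, 6 and 1 disome counts in WT to 21, 7 and 11 in KO, a paired change of 2.19 (standard error 0.46, edgeR adjusted p = 0.00344) that rests on few counts. Inafm2, with 3, 0 and 0 disome counts in WT and 3, 7 and 1 in KO, and the adrenergic receptor Adra2c, with 3 to 5 against 6 to 8, had fitted changes of 3.72 and 2.47 (standard errors 0.95 and 0.58) that rest on still fewer counts. Their Ribo-seq changes were -1.35 and -1.29. Ccn1, which encodes a matricellular protein induced by injury, had 36, 16 and 8 disome counts in WT and 43, 20 and 13 in KO, and its change of 1.12 was just inside the threshold (edgeR adjusted p = 0.0475).

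The remaining genes with a higher ratio were Sipa1l1 at 0.84, 4833439L19Rik at 0.84, Mbd2, a reader of methylated DNA, at 1.10, Mroh6 at 1.53 and Pkp4, a plakophilin of cell junctions, at 0.70. Except in Pkp4, the KO pairs of these genes lay above all WT pairs. In Mbd2 and Mroh6 the Ribo-seq change, -0.48 and -1.08, was called in Ribo-seq alone.

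Genes of the mitochondrial genome, which are translated by mitochondrial ribosomes of another composition, had the highest median paired change of the lists with at least 8 members tested. All 13 had a change above 0, with a median of 0.65 made of 0.58 in disome-seq and -0.10 in Ribo-seq. At an unadjusted p under 0.05, 10 of 13 (76.9%) were higher, against 3.5% of all genes, and mt-Co3 was called. In none of the 13 did the KO pairs lie wholly above the WT pairs. The median ratio of the 13 genes relative to all genes was -0.20, -0.81 and -0.69 in WT pairs 1 to 3 and -0.86, 0.76 and 0.60 in KO pairs 1 to 3, so KO pairs 2 and 3 were high and KO pair 1 lay below every WT pair.

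The gene mt-Co3, cytochrome c oxidase subunit 3, gave disome levels of 1430, 1020 and 1470 CPM in WT and 1240, 3230 and 3100 CPM in KO, and Ribo-seq levels of 1800 to 2720 CPM in WT and 1730 to 2360 CPM in KO. Its paired change was 0.98 (standard error 0.21, edgeR adjusted p = 0.00625), and 99.9% of its 28-base stretches occur in other annotated transcripts. The mitochondrial genome held 1.64%, 3.17% and 3.35% of disome counts in KO libraries 1 to 3 and 1.77% to 1.95% in WT. Without KO pair 1, 11 of the 13 genes were called and the median was 1.07. Without KO pair 2 or 3 none was, with medians of 0.30 and 0.39, and with library totals in place of TMM scaling 7 were called. The 79 nuclear genes for respiratory chain subunits had a median of -0.08 and no call.

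**Figure D3:**
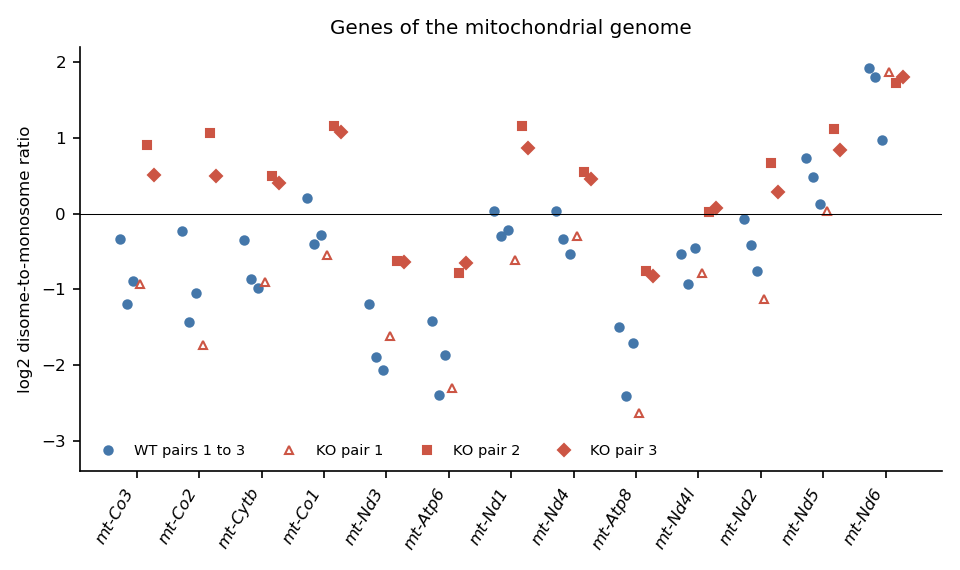
The log2 disome-to-monosome ratio in each pair for the 13 genes of the mitochondrial genome, ordered by paired change, with WT pairs as blue circles and KO pairs 1 to 3 as open triangles, squares and diamonds in red. KO pairs 2 and 3 stand high for most genes, whereas KO pair 1 lies among or below the WT pairs.

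Factors that sense and resolve collisions did not have called paired changes. Of 25 collision and quality control genes tested, 0 were called, with 1 lower at an unadjusted p under 0.05 and a median of 0.09. That gene was Edf1, an early sensor of collided ribosomes, with log2 ratios of 0.92, 0.79 and 1.13 in WT and 0.75, 0.50 and 0.46 in KO and a change of -0.34 (edgeR adjusted p = 0.664). Ascc2, a subunit of the complex that splits collided ribosomes, had -0.10 with a standard error of 0.23, and Vcp, the segregase that extracts stalled products, 0.08 with 0.17. Elongation and termination factors had a median of -0.14 over 16 genes and no call, and Eef2, the translocase, had 0.01 with a standard error of 0.17.

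The list of genes with a programmed pause or frameshift was broad. It also holds genes such as Atf4, Ddit3 and Ccnd1, so it is no strict reference for known sites of slow translation. Of 13 entries tested none was called and the median was -0.01. Ddit3 entered under more than a single gene identifier, with changes of 0.50 and -0.39. Xbp1, whose nascent chain pauses the ribosome, had log2 ratios of 0.90, 0.85 and 1.37 in WT and 1.09, 1.22 and 1.00 in KO, which overlapped, and a change of 0.13 (standard error 0.17, edgeR adjusted p = 0.941). Oaz1, antizyme with a frameshift site, had -0.43 (edgeR adjusted p = 0.497), with 0.84, 0.64 and 0.63 in WT and -0.47, 0.72 and 0.61 in KO, so its value came from KO pair 1.

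Ribosomal protein genes as a group had medians close to that of all genes. Of 47 genes listed by name under the large subunit, Rpl27 was called and the median was -0.01. At an unadjusted p under 0.05, 4 were higher and 3 lower. The 47 include the deleted Rpl41, whose change of -0.22 had a standard error of 2.36. Of 34 small subunit genes none was called, with a median of -0.02. Rpl23a had the opposite sign to Rpl27, 0.78 (edgeR adjusted p = 0.0774), with log2 ratios of 2.17, 2.06 and 1.48 in WT and 2.19, 3.28 and 2.48 in KO.

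The genes of the tubules, which make up most of the kidney, had paired changes near 0. Proximal tubule transporters had medians of 0.22 in Ribo-seq and 0.24 in disome-seq and of 0.03 in the paired change, and brush border enzymes and scaffolds 0.35, 0.21 and -0.04, with no call in either list. Lrp2, the endocytic receptor megalin of 4660 residues, had changes of 0.62 in Ribo-seq and 0.56 in disome-seq, and its paired change was -0.07 with a standard error of 0.20. Slc12a1, the sodium transporter of the thick ascending limb, had 0.82 and 0.77 and a paired change of -0.03 (standard error 0.18). Pck1, a key enzyme of gluconeogenesis, had 0.64 and 0.87 and a paired change of 0.24 (standard error 0.19).

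Of 977 genes in 38 lists, 889 were tested, 2 were called higher and 6 lower, and 29 of the lists had a median between -0.15 and 0.15. Red cell markers had a median of -0.29 over 7 genes, with summed disome levels of 1250 to 1340 CPM in WT and 661 to 894 CPM in KO and no call. Among 21 kidney injury markers the gene called was Fgg, and the median was -0.10. Stress response targets of ATF4 had -0.03 over 23 genes, p53 targets 0.09 over 17 and selenoproteins 0.05 over 20, with no call in these lists.

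**Figure D4:**
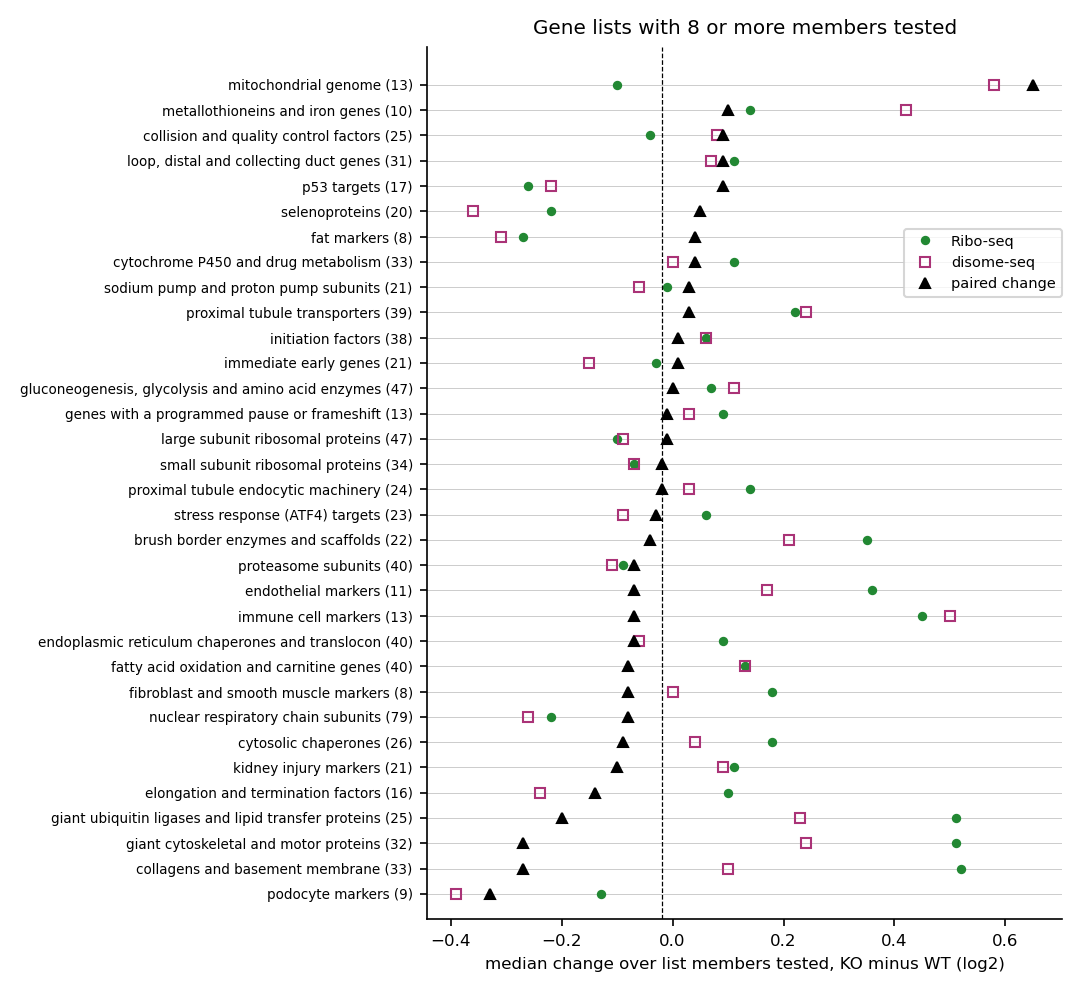
Median genotype change (KO minus WT, log2) over the tested members of each list with at least 8 of them, numbers in brackets, for Ribo-seq (filled circles), disome-seq (open squares) and the paired change (triangles). The dashed line is the median paired change of all genes, -0.02, and the lists farthest from it are the mitochondrial genome at 0.65 and, below it, podocyte markers at -0.33, collagens and basement membrane at -0.27 and giant cytoskeletal and motor proteins at -0.27.

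Protein length, the axis along which the study compared translation, was related to the ratio itself in every pair. With genes divided into 10 equal classes by protein length, the median ratio relative to all genes was between -0.26 and -0.17 in the fourth class, of 323 to 395 residues, and between 0.48 and 0.72 in the longest, of 1184 residues or more. Each of the 6 pairs had its highest class median in the longest class. Median Ribo-seq and disome-seq changes went with length in the same direction, from -0.25 and -0.23 in the shortest class to 0.26 and 0.16 in the longest.

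The paired change followed length far less. Its class medians ran from -0.03 to 0.01 in the first 9 classes and stood at -0.06 in the longest. In the longest class, of 1237 genes, 6 were called higher and 7 lower, against 0.186% and 0.097% of all genes. At an unadjusted p under 0.05, 53 were higher and 120 lower, against 3.5% and 3.99% of all genes. For the 619 genes of the longest 5%, with at least 1604 residues, the median was -0.11, or -0.09 relative to all genes, with Ribo-seq at 0.33 and disome-seq at 0.18. Of these 619 genes 4 were called higher and 6 lower. At an unadjusted p under 0.05, 25 were higher and 88 lower, beside the same 3.5% and 3.99% of all genes. Their median ratio relative to all genes was 0.62, 0.79 and 0.61 in the WT pairs and 0.55, 0.65 and 0.60 in the KO pairs, which overlapped. The shortest 5% had a median of -0.01, with -0.28 in Ribo-seq and -0.27 in disome-seq.

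The 12 genes with a lower ratio had a median protein length of 1634.5 residues, the 23 with a higher ratio 456 and all genes tested 472. The near copies Gvin1 and Gm4070, of 2427 residues each, both enter the first median, and counting them as 1 gene would lower it. Runs of 3 prolines, at which elongation is slow, occurred in 9 of the 23 (39.1%) and 3 of the 12 (25.0%) against 24.6% of all genes. Genes with such a run had higher ratios in every pair, 0.168 to 0.259 above the median of all genes, but their median paired change was -0.016 against -0.019 in genes without. Runs of 4 basic residues gave -0.021 against -0.017, and runs of 5 acidic residues -0.037 against -0.015. Proline, lysine and arginine content of the called genes was 6.33%, 5.13% and 6.51% in median for a higher ratio and 5.88%, 5.58% and 6.07% for a lower ratio, beside 5.46%, 5.68% and 5.6% for all genes.

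Of the genes that the study names, Ahnak was called. The paper names the genes of this paragraph for protein abundance in human HEK293T cells, not for footprints in mouse kidney. The short-protein genes Vamp8, Cisd1, Cstb and Cycs had paired changes of 0.28, -0.14, -0.11 and -0.09, with standard errors of 0.16 to 0.22. Vamp8, a SNARE protein of 101 residues, had log2 ratios of -0.17, -0.33 and -0.23 in WT and -0.04, -0.01 and 0.23 in KO, without overlap but not called (edgeR adjusted p = 0.872). Rps27l had -0.01 and Nup98, a nuclear pore protein, 0.01, and the signs of these changed with the settings. The change of Nup98 was 0.59 in Ribo-seq and 0.56 in disome-seq. Hc, the complement component C5, had no disome count in any library and was not tested.

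The threshold passed between genes of similar evidence. Just inside it were Hip1r, Ccn1 and Inafm2 at adjusted p of 0.0464 to 0.0477 by edgeR, and just outside were Wwp1, a ubiquitin ligase, Parvb, Ptar1 and Atrip, at adjusted p of 0.0537, 0.054, 0.0581 and 0.0622. Wwp1 had a paired change of 0.85, Ptar1 of -1.39 and Atrip of 1.76.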

How the data were processed

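The authors trimmed reads with cutadapt and removed those that aligned to human rRNA sequences. The rest were aligned with STAR to the mouse genome (mm10) with multimapping reads allowed. They were counted with featureCounts and deposited as raw counts per transcript, in which 1 read can enter several isoforms. All 30 value columns of the mouse table match a sample. Another table, with 28 value columns named with titles of mouse samples although it lists human transcripts, was not used. The labels of the mouse samples carry a growth protocol for HEK293T cells. Here 1 coding transcript per gene was taken from GENCODE M21, the one with the longest protein. Genes were filtered with filterByExpr, each assay was scaled by TMM, and the assay by genotype term was tested with edgeR's quasi-likelihood F-test (edgeR 4.0.16, R 4.3.3), with a term for each of the 6 pairs and Benjamini-Hochberg adjustment over all genes at 0.05. Log2 ratios per pair used CPM with a prior count of 2. P-values and standard errors came from a fit that shares information on spread between genes. They need not match the spread between the pairs of 1 gene. Glra4 had a standard error of 0.21, beside SDs of its ratios of 0.53 in WT and 1.24 in KO. For Lama5 the standard error was 0.18, beside SDs of 0.26 and 0.18. The sources name no mouse for these libraries. Across genes with at least 10 counts in every library, a disome-seq library's deviation from its group mean correlated at r = 0.166 to 0.456 with that of the Ribo-seq library of its number and at -0.395 to 0.093 with the others, and 6 of 6 were closest to their own number. Across all genes tested the values were 0.066 to 0.208 and -0.161 to -0.004. Deviations within a group sum to 0, so a positive value for the own number lowers those for the others.

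Genes named are those the study names, called genes, and of each gene list the members called or with the highest disome level, and those named for low unadjusted p or a p near the threshold were chosen after their values were seen. The gene lists and the pairing were chosen with earlier results of these data known. Alternatives were other blocks, DESeq2 1.42.0, limma 3.58.1, other scaling, filters, prior counts and transcripts, and each library pair left out. The fit was tested on simulated data. A further gene is not reported here.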

Additional observations from a re-analysis of the deposited data

How the results depend on the processing

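The count of called genes changed with the replicate block, the tool and the pairs kept. With no replicate block edgeR called 0 of the 35 genes and 0 of the 8 list members called (735 genes at an unadjusted p under 0.05), and a block shared across genotypes called 45, of which 33 were among the 35. DESeq2 called 2 genes and 0 list members (337 at an unadjusted p under 0.05), limma on the paired ratios 0 and 0 (812). At least 10 counts in every library left 14 genes and 3 list members, library totals in place of TMM gave 36 genes and 14 list members, and all transcripts gave 204. With 1 pair left out the count of genes ranged from 9 to 72 and that of list members from 1 to 23. It was 72 and 23 without KO pair 1, 9 and 1 without KO pair 2, 14 and 3 without KO pair 3, and 4 list members without WT pair 2. Within single assays, in alternatives chosen after seeing the data, library totals gave 23 genes in disome-seq and 875 in Ribo-seq, at least 10 counts gave 1 and 624, and leaving out 1 library gave 1 to 53 and 12 to 1345, of which 53 without KO library 1, 48 without WT library 3, 6 without WT library 1 or KO library 2 and 1 without KO library 3 in disome-seq, and 585, 502, 15 and 12 without WT library 1, WT library 2, KO library 2 and KO library 3 in Ribo-seq. Without the mitochondrial genome, an alternative chosen after seeing the data, 39 genes were called. Gm20594 and Wdfy1 passed in 14 of 16 settings, Itsn1 in 13 and Ccn1 in 3, and none of the 35 changed sign. The gene Rps27l, at -0.01, changed sign to 0.0366 with no replicate block, 0.0285 in DESeq2, 0.00486 in limma and 0.0216 with at least 10 counts in every library, and ranged from -0.21 to 0.154 with 1 pair left out. The gene Nup98, at 0.01, changed sign to -0.0281 with no replicate block, -0.0114 with TMM over all 12 libraries, -0.0545 with at least 1 count in any library and -0.00205 with the transcript with the most counts, and ranged from -0.119 to 0.144 with 1 pair left out. The causes were not tested. Disome depth limits what was detectable.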
